A study of Homo sapiens with 48 samples.

Results

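The response of T47D-YA-IRS-2 #1 cells to 4 h of IGF-I was examined, by setting the 3 arrays of IGF-I-treated cells against the 3 arrays of the same clone in serum-free medium (SFM) at 4 h. These 6 arrays were chosen by clone, treatment and time alone, out of 48 arrays in the series, and their expression was followed across all probe sets of the Affymetrix HG-U133 Plus 2.0 array other than the Affymetrix controls. T47D-YA is a breast cancer cell line, derived from T47D, that has lost the insulin receptor substrate (IRS) proteins but retains a functional type I IGF receptor (IGF-1R). Its sublines carry stably transfected human IRS-1, in the clones numbered #10 and #20, or human IRS-2, in #1 and #6, and all of them were maintained in G418 and hygromycin B. According to the methods, cells were kept in SFM for 24 h and then given SFM with FN alone or IGF-I, and RNA was taken after 4 h or 24 h. The groups set beside the 4 h response of IRS-2 #1 are the 4 h IGF-I and SFM arrays of IRS-2 #6, IRS-1 #10 and IRS-1 #20 and the 24 h arrays of IRS-2 #1, with 3 arrays in each. IRS-2 #1 is a single clone, the arrays of a group are not stated to come from separate cultures, and p-values therefore measure the spread between arrays, which may be technical.

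IGF-I activates the tyrosine kinase of IGF-1R, which phosphorylates IRS adaptor proteins. IRS-2 then recruits PI3K and GRB2, which lead to AKT and to the RAS and ERK cascade. AKT keeps FOXO transcription factors out of the nucleus and so lowers their targets, while ERK raises early response genes together with the phosphatases and adaptors that restrain it. In breast cancer cells IRS-2 is best known for its part in motility and invasion.

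Levels are log2 GC-RMA values, and a log2 fold change is the mean of the IGF-I arrays minus the mean of the SFM arrays, so that 1 is a doubling. A change was called where limma's p, adjusted by Benjamini-Hochberg, was under 0.05 and the change was at least 1.5-fold, and "rose" and "fell" are used for called probe sets only. Standard errors (SE) come from the limma fit to all 48 arrays. A gene is given by its brightest probe set unless another is named.

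IGF-I altered few genes within 4 h, and most of those rose. Of 54613 probe sets, 48 rose (0.0879%) and 11 fell (0.0201%), 59 in all (0.108%). They belong to 38 genes with a single symbol, of which 32 rose and 6 fell, and 3 further called probe sets carry no single symbol. Counted by the brightest probe set, 25 of 19775 genes rose (0.126%) and 3 fell (0.0152%). The genes with the largest rises were GBP1, an interferon-inducible guanylate-binding GTPase, TGFB2, which encodes the ligand TGF-beta 2, and THBS1, which encodes the matrix protein thrombospondin 1. By any probe set, the largest falls were in KLHL24, a substrate adaptor of cullin ubiquitin ligases that was not called by its brightest probe set, and MRNIP-DT, a divergent transcript of MRNIP whose calls were lost under background subtraction by normexp. At the adjusted p alone, 568 probe sets were higher (1.04%) and 319 lower (0.584%), or 302 genes higher (1.53%) and 157 lower (0.794%). Counts of gene list members given below are to be read beside these shares of all genes, called or past the adjusted p. The lists were chosen with earlier results of these data known, so these counts are no independent test. In RNA from whole cultures, fewer cells expressing a gene and less RNA per cell cannot be told apart. The number that fell depended on the B arrays. Leaving out the arrays lettered B in all groups gave 96 called probe sets, 51 higher and 45 lower, and leaving out only IGF-I replicate B gave 82, 44 higher and 38 lower. Subtracting background by normexp left 37 higher and 4 lower.

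**Figure D1:**
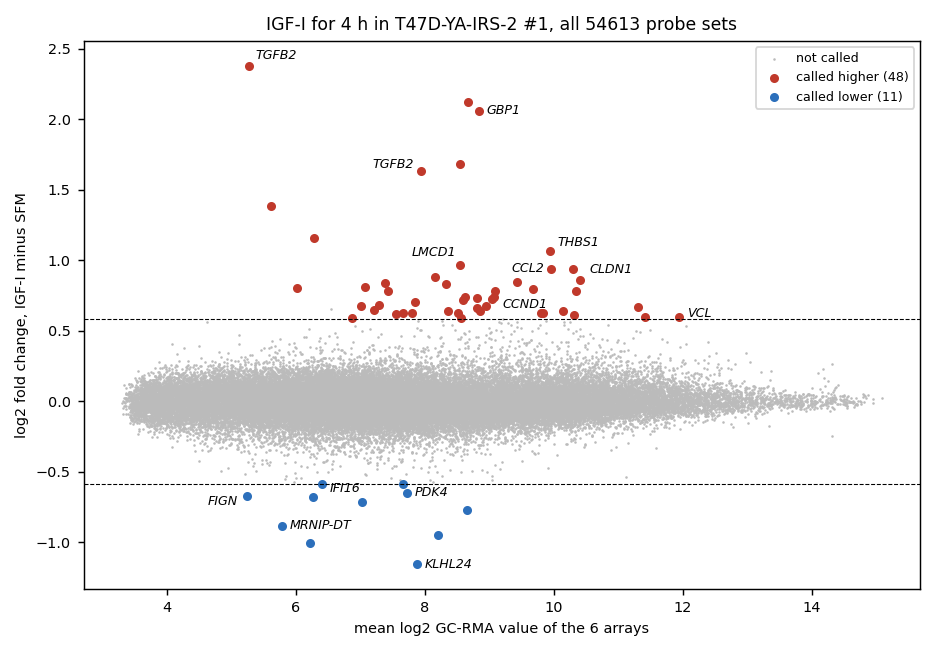
Log2 fold change of IGF-I over SFM (vertical axis) against the mean log2 value of the 6 arrays (horizontal axis) for 54613 probe sets, with red points for the 48 that rose, blue points for the 11 that fell and dashed lines at 1.5-fold. The cloud of uncalled probe sets is centred close to 0, and TGFB2 and GBP1 stand highest.

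The arrays themselves were alike. Array medians lay between 7.39 and 7.43, within a group the correlation over probe sets was 0.996 to 0.998, and between SFM and IGF-I arrays it was 0.996 to 0.997. Of 12 luminal breast epithelial markers, 11 had a mean level of at least 8, led by KRT18 at 14.8, while 0 of 5 measured leukocyte markers did. That level was also reached by 3 of 5 measured basal or myoepithelial, 2 of 7 fibroblast and 2 of 5 endothelial markers. No marker of luminal, basal, fibroblast, endothelial or leukocyte cells was called. The summed level of the 7 fibroblast markers was 10.76 to 10.82 in SFM arrays and 10.89 to 10.94 in IGF-I arrays, with LUM at 4.39 and COL1A1 at 9.63, and its part in the results was not tested. The 3-prime minus 5-prime signal of the ACTB control, a sign of RNA quality, was 0.137 to 0.158 in SFM arrays and 0.096 to 0.147 in IGF-I arrays, and 61 probe sets were called with it as a covariate. The brightest IRS2 probe set was at 6.90 in SFM arrays of this clone against 6.96 for IRS-2 #6, 7.07 for IRS-1 #20 and 7.51 for IRS-1 #10. It does not set the IRS-2 clones apart, and the files do not say whether it lies within the transfected sequence, so clone names rest on the labels.

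Promoter sequence is shown for motifs chosen after their counts were seen, so that the called genes can be compared by sequence. RefSeq promoters of GRCh38.p14 were matched to 29 of the 38 genes, 23 that rose and 6 that fell, and the 250 bases before the start were searched on both strands, as for 27305 promoters in all. The full cyclic AMP response element (CRE, TGACGTCA) was found in 4 of 23 promoters of genes that rose (17.4%) and in 1.77% of all promoters. Its 4 holders were LMCD1, a LIM-domain cofactor, MAFF, a small MAF factor, BACH2, a BTB-domain transcriptional repressor, and IFRD1, a transcriptional coregulator. Among the genes that fell it stood in FBXL20, an F-box protein gene. The genes searched are those called by any probe set. On their brightest probe sets LMCD1, MAFF and BACH2, at 0.44, 0.27 and 0.37, and FBXL20, at -0.305, were not called. The calls of BACH2 and FBXL20 were also lost under normexp. The 58-base windows below have the CRE in capitals and run 5′ to 3′ along the gene's strand.
LMCD1, chr3:8501615-8501672, plus strand: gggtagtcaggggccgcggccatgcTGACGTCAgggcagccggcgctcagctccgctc
MAFF, chr22:38201915-38201972, plus strand: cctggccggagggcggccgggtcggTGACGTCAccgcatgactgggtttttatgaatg
BACH2, chr6:90296893-90296950, minus strand: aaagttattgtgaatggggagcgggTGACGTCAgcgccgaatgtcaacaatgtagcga
IFRD1, chr7:112450383-112450440, plus strand: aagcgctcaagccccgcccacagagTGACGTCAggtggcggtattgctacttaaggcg
FBXL20, chr17:39402644-39402701, minus strand: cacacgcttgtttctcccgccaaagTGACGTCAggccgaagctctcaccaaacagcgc

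The CArG box, the motif bound by serum response factor (SRF), was found in 2 of the 23 promoters of genes that rose (8.7%) and in 1.14% of all promoters. Both are shown with the box in capitals, since GBP1 and FHL2 are among the genes described in full here. GBP1 also holds an interferon response element-like (ISRE-like) motif, which is in 3.07% of all promoters, read on the opposite strand and so printed as its reverse complement. TGFB2 and KLHL24 are shown because they are described in full here. TGFB2 holds an E-box (CACGTG) 49 bases before its start, as do 4 of the 23 (17.4%) against 6.49% of all promoters, the others being AHR, FHL2 and MAFF. KLHL24 holds the AP-1 site TGACTCA on the opposite strand, also printed as its reverse complement, as the 1 of 6 genes that fell (16.7%) against 4.16% of all promoters.
FHL2 CArG box, chr2:105438580-105438639, minus strand: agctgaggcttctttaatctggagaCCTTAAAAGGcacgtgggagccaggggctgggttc
GBP1 CArG box, chr1:89065340-89065399, minus strand: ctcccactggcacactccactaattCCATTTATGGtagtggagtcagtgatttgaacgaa
GBP1 ISRE-like, chr1:89065301-89065360, minus strand: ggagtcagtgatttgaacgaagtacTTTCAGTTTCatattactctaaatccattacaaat
TGFB2 E-box, chr1:218345262-218345317, plus strand: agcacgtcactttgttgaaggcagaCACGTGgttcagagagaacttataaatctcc
KLHL24 AP-1 site, chr3:183635395-183635451, plus strand: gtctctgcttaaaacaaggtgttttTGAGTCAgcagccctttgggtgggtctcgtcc

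Among promoters of genes that rose, the AP-1 site was in 1 of 23 (4.35%), the FOXO site TGTTTAC in 0 of 23 against 2.98%, the GC box GGGCGG in 56.5% against 42.3% and the TEAD site GGAATG in 21.7% against 11.9%. The GAS-like motif TTCNNNGAA was in 13.0% against 6.78%, the NF-kB site in 8.7% against 5.05%, and TGACG, which is contained in the CRE, in 34.8% against 21.7%. Among the 6 promoters of genes that fell, TGACG and the GC box were each in 3, the TEAD site in 1 and the FOXO site in 0. A match describes these letters in this window and says nothing of binding, and an absent match says nothing of the factor.

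TGFB2, whose product signals through the TGF-beta receptors, gave some of the largest changes. Its brightest probe set read 7.15, 7.14 and 7.11 in SFM replicates A, B and C and 8.95, 8.58 and 8.77 in IGF-I replicates A, B and C. All IGF-I arrays lay far above the SFM arrays, and the level rose by 1.63 on the log2 scale (SE 0.0963, limma adjusted p = 1.58e-17). Of its 5 probe sets 4 rose, by 0.83 to 2.38. The largest rise was that of the one dimmest in SFM, from 4.09 ± 0.0214 to 6.47 ± 0.202 (SD, n = 3 arrays), while the remaining one differed by -0.12 and was not called. Under normexp that rise was 1.18, smaller than the 1.40 of the brightest probe set, and the rise of another dim probe set went from 1.38 to 0.76. Of the other TGF-beta family ligands, receptors and SMAD genes, SKIL was higher at the adjusted p by 0.32 and was not called, and TGFB1 differed by -0.04 (limma adjusted p = 0.957). TGFB2 was thus the 1 called gene of the 29 measured, and their median log2 fold change was 0.04 against -0.01 for all genes.

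GBP1 showed the largest rise of any gene by brightest probe set. Its levels were 7.75, 7.89 and 7.81 in the SFM arrays and 9.95, 9.81 and 9.86 in the IGF-I arrays, a 4.16-fold rise of 2.06 on the log2 scale (SE 0.0909, limma adjusted p = 3.32e-22). The groups were separated by more than 1.9 on the log2 scale. Of 4 GBP1 probe sets 3 rose, by 1.68 to 2.12, and the dimmest differed by -0.16. Of 36 interferon-stimulated and guanylate-binding genes measured, GBP1 alone rose by its brightest probe set. GBP2, a related GTPase, was called by a dimmer probe set only (0.65), and its brightest one was at 0.18. That call was lost without SFM replicate B (0.565) or IGF-I replicate B (0.53) and under normexp (0.51). The median of the 36 genes was -0.08, and IRF2 and IFI27 were lower at the adjusted p, by 0.25 and 0.20 in size.

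**Figure D2:**
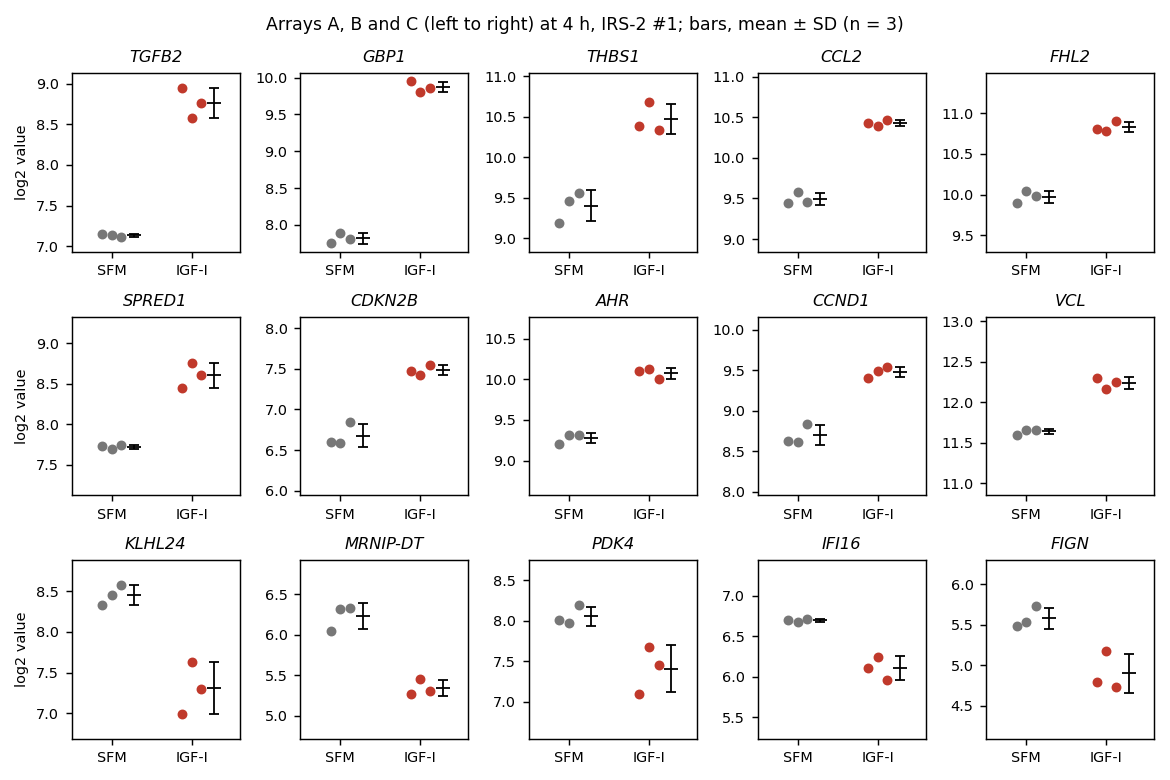
Log2 level of 15 called genes on each array of IRS-2 #1 at 4 h, SFM in grey and IGF-I in red, arrays A to C from left to right, with the mean ± SD of 3 arrays as bars. The upper 10 genes are higher on every IGF-I array than on any SFM array and the lower 5 are lower, and among the lower 5 IGF-I replicate B is the highest of the IGF-I arrays in each.

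Of 30 measured genes listed for SRF, YAP and the actin cytoskeleton, 4 rose by their brightest probe set (THBS1, FHL2, SIPA1L2 and VCL) and 0 fell, beside 0.126% and 0.0152% of all genes. At the adjusted p 12 were higher and 0 lower, and the median was 0.14. THBS1 levels were 9.19, 9.46 and 9.56 in SFM arrays and 10.39, 10.68 and 10.34 in IGF-I arrays, a rise of 1.07 (SE 0.105, limma adjusted p = 5.34e-10). SFM replicate A was the lowest array, and the groups did not overlap. Of 7 THBS1 probe sets 2 rose, by 1.07 and 0.67, the latter not called without the arrays lettered B (0.57), and the mean over all 7 changed by 0.38.

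FHL2, a LIM-domain cofactor that binds integrins and transcription factors, read 9.89, 10.04 and 9.98 in SFM arrays and 10.81, 10.78 and 10.90 in IGF-I arrays, a rise of 0.86 (SE 0.0629, limma adjusted p = 6.11e-14). VCL, which encodes the focal adhesion protein vinculin, rose from 11.64 ± 0.0324 to 12.24 ± 0.0688 (SD, n = 3), by 0.60. It lay close to the 1.5-fold limit, and its call was lost without SFM replicate A (0.58) or IGF-I replicate A (0.57), and under quantile normalization (0.58). The mean of the 2 VCL probe sets changed by 0.28 and was not called. SIPA1L2, of the SIPA1 family of RAP GTPase-activating proteins, rose by 0.72, while the mean of its 3 probe sets changed by 0.50 and was not called. Outside the list, PALLD, which encodes the actin-binding palladin, rose by 0.62 and LMCD1 by 0.97, the latter by a dimmer probe set, with 0.44 for its brightest. The mean of the 4 PALLD probe sets changed by 0.38 and was not called. Of 38 measured genes for integrins, matrix and focal adhesion, 0 was called and 0 passed the adjusted p, with a median of 0.016 and a range from -0.13 to 0.22. Of all genes 1.53% were higher and 0.794% lower at the adjusted p, so 0 of 38 does not set this list apart. CLDN1, a tight junction claudin, rose by both of its probe sets, by 0.67 and 0.94. ANXA3, a calcium-dependent membrane-binding annexin, rose by 0.74.

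Of 28 measured genes of ERK and receptor kinase feedback, 3 rose and 0 fell, beside 0.126% and 0.0152% of all genes. At the adjusted p 8 were higher and 1 lower, beside 1.53% and 0.794% of all genes, and the median was 0.13. Those that rose were SPRED1 and SPRED2, Sprouty-related inhibitors of RAS to RAF signaling, and DUSP4, a nuclear ERK phosphatase. SPRED1 levels were 7.73, 7.69 and 7.74 in SFM arrays and 8.45, 8.76 and 8.61 in IGF-I arrays, and all 3 of its probe sets rose, by 0.68 to 0.88, the 2 dimmer ones not under normexp (0.54 and 0.515). SPRED2 rose by 0.84 from 9.01 ± 0.0373 to 9.86 ± 0.0647 (SD, n = 3), although its 2 dimmer probe sets, at 0.35 and 0.14, were not called. DUSP4 rose from 8.04 ± 0.0524 to 8.68 ± 0.0367 (SD, n = 3), by 0.64, a call lost under normexp (0.57) and on the mean of its 3 probe sets (0.53). Chosen after their values were seen, DUSP6 and ERRFI1, which restrain ERK and the EGF receptor family, were at 0.47 and 0.42, and CBLB, an E3 ubiquitin ligase, at -0.48, all past the adjusted p and under 1.5-fold. ETV5, an ETS factor downstream of ERK, rose by 0.63, a call also lost under normexp (0.56) and on the mean of its 5 probe sets (0.30). SPRED3 was not called, at 0.12.

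The early response genes had mostly smaller differences at 4 h. Of 47 measured, 12 were higher and 0 lower at the adjusted p, beside 1.53% and 0.794% of all genes. Their median was 0.17 against -0.01 for all genes, but 0 was called by its brightest probe set. The highest were CCN1, a matricellular protein gene, at 0.56 and SRF itself at 0.56, followed by KLF4 at 0.48 and TRIB1 at 0.44. SRF read 9.89, 9.89 and 9.84 in SFM arrays and 10.44, 10.44 and 10.42 in IGF-I arrays, so the groups were well apart although the change stayed under 1.5-fold. CCN1 was called without SFM replicate A (0.59) or IGF-I replicate A (0.60). MAFF rose by 1 of its 2 probe sets, by 0.83, with 0.27 for the other.

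Among cell cycle genes, a G1 cyclin and an inhibitor of its kinases rose. CCND1, which encodes cyclin D1, read 8.63, 8.62 and 8.84 in SFM arrays and 9.41, 9.49 and 9.54 in IGF-I arrays, a rise of 0.78 (SE 0.0693, limma adjusted p = 2.73e-11). The lowest IGF-I array was 0.57 above the highest SFM array, and the other CCND1 probe set differed by 0.52. CDKN2B, which encodes the CDK4 and CDK6 inhibitor p15, read 6.60, 6.59 and 6.84 in SFM arrays and 7.48, 7.43 and 7.55 in IGF-I arrays, a rise of 0.81 (SE 0.0919, limma adjusted p = 2.79e-08), with 0.26 for its other probe set. CCND1 was the 1 called gene of 14 G1 cyclins and cyclin-dependent kinases, and CDKN2B of 6 CDK inhibitors. Of 43 mitosis genes, 35 DNA replication genes and 14 clustered histone genes, 0 passed the adjusted p, and their medians were -0.07, -0.02 and -0.10. MYBL2, a cell cycle transcription factor, differed by -0.09.

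Single genes of several other pathways rose. CCL2, a monocyte-attracting chemokine, read 9.44, 9.58 and 9.46 in SFM arrays and 10.43, 10.39 and 10.47 in IGF-I arrays, a rise of 0.93 (SE 0.0757, limma adjusted p = 1.9e-12), and was the 1 called of 30 NF-kB subunits, feedback genes and chemokines. AHR, the aryl hydrocarbon receptor, read 9.20, 9.31 and 9.32 in SFM arrays and 10.10, 10.13 and 10.00 in IGF-I arrays, a rise of 0.80. Its target CYP1A1, chosen after its value was seen, was lower by 0.54 in size, past the adjusted p and under 1.5-fold. Of the 10 genes in that list AHR alone was called.

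RUNX2, a Runt-family transcription factor, rose by 0.66, but its 5 other probe sets lay between -0.10 and 0.18 and the mean of all of them at 0.17. SLC7A11, the cystine transporter subunit, rose by 2 of its 3 probe sets, by 0.78 and 0.59, with 0.09 for its brightest. The smaller of these rises was not called without SFM replicate A (0.50) or IGF-I replicate B (0.53) or under normexp (0.44). In its list 5 of 30 ATF4 and amino acid supply genes were higher at the adjusted p, beside 1.53% of all genes. SLC7A1 was the highest of them, at 0.43. TNFRSF11B, which encodes osteoprotegerin, rose by its dimmer probe set, by 0.63, a call lost without IGF-I replicate B (0.53) and under normexp (0.52). TNFRSF12A, the TWEAK receptor, was at 0.50, from 11.28, 11.22 and 11.23 to 11.70, 11.71 and 11.83, and ADM, which encodes adrenomedullin, at 0.55, both past the adjusted p and under 1.5-fold. FLRT3 and BACH2 were called by a second probe set, at 0.73 and 0.81, the former not without the arrays lettered A (0.65) and the latter not under normexp (0.50). The remaining genes that rose by their brightest probe set were SAMD4A (0.78), NABP1 (0.72), IFRD1 (0.64), RASSF3 (0.64), FAM131B-AS2 (0.63), ELL2 (0.61), a subunit of transcription elongation complexes, and PHLDA2 (0.59). Averaged over all probe sets of the gene, SAMD4A (0.43), NABP1 (0.56), IFRD1 (0.415), FAM131B-AS2 (0.22), ELL2 (0.32) and PHLDA2 (0.23) were not called. The calls of FAM131B-AS2, ELL2 and PHLDA2 were lost without SFM replicate A (0.57, 0.54 and 0.58), those of ELL2 and PHLDA2 also without IGF-I replicate B (0.57 and 0.58), and that of PHLDA2 without IGF-I replicate C (0.58).

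**Figure D3:**
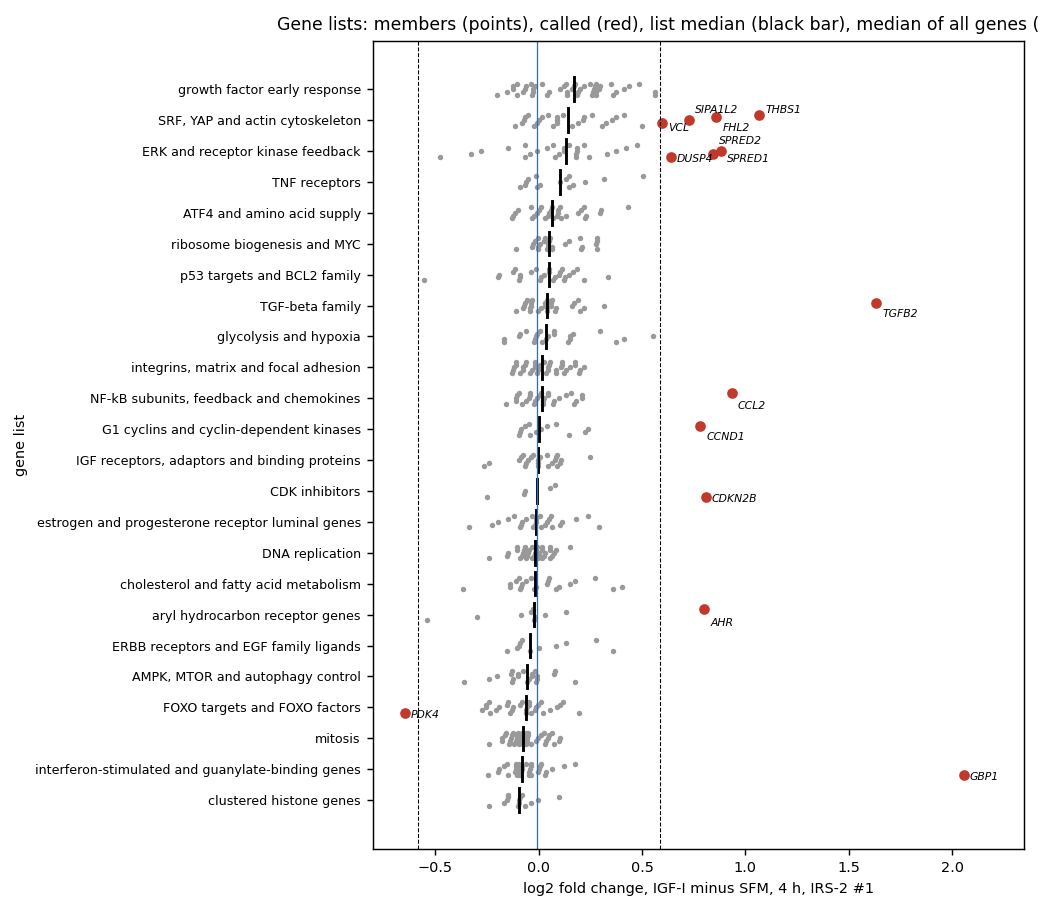
Log2 fold change of each measured member (points) of 24 gene lists, with called members in red, list medians as black bars, the median of all genes as a blue line and dashed lines at 1.5-fold. The early response, SRF and ERK feedback lists have the highest medians, at 0.17, 0.14 and 0.13, and most lists lie close to 0 with at most 1 called member.

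Fewer genes fell, and the falls varied more between the IGF-I arrays. KLHL24 fell by 4 of its 5 probe sets, by 0.77 to 1.15 on the log2 scale, the dimmest of them by 1.00 and under normexp by 0.65. On the probe set that fell most the levels were 8.33, 8.45 and 8.58 in SFM arrays and 6.99, 7.63 and 7.30 in IGF-I arrays, a log2 fold change of -1.15 (SE 0.106, limma adjusted p = 7.17e-11). IGF-I replicate B was the highest of the IGF-I arrays and still 0.70 under the lowest SFM array. The KLHL24 probe set that is brightest across the 48 arrays differed by -0.13 and was not called. PDK4, a pyruvate dehydrogenase kinase and FOXO target, read 8.01, 7.97 and 8.19 in SFM arrays and 7.10, 7.68 and 7.45 in IGF-I arrays, and fell by 0.65 (SE 0.112, limma adjusted p = 0.000182). Its call was lost without SFM replicate C (-0.58) or IGF-I replicate A (-0.49) and under normexp (-0.54), and 2 dimmer probe sets were at -0.26 and 0.01.

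PDK4 was the 1 called gene of 31 FOXO targets and FOXO factors, whose median was -0.06. At the adjusted p 6 of the 31 were lower and 0 higher, beside 0.794% and 1.53% of all genes. BMF, a pro-apoptotic BH3-only gene, and ULK1, the autophagy-initiating kinase, were lower past the adjusted p, at -0.56 and -0.36, and under 1.5-fold. IFI16, an interferon-inducible DNA sensor, read 6.70, 6.68 and 6.71 in SFM arrays and 6.11, 6.25 and 5.96 in IGF-I arrays, and fell by 0.59. Its call was lost without SFM replicate C (-0.58) or IGF-I replicate C (-0.52) and under quantile normalization (-0.58), median centring (-0.58) and normexp (-0.40). The mean of the 3 IFI16 probe sets changed by -0.35 and was not called. MRNIP-DT fell by both of its probe sets, by 0.68 and 0.88. Both calls were lost under normexp (-0.445 and -0.51), and the smaller also without the arrays lettered C (-0.52). FIGN, a microtubule-severing ATPase, and FBXL20 fell by 1 dim probe set each, by 0.68 and 0.72 (-0.675 and -0.715), with -0.17 and -0.30 for their brightest ones. The call of FBXL20 was lost without IGF-I replicate A (-0.57) or C (-0.61) and under normexp (-0.54), and that of FIGN without the arrays lettered C (-0.515) and under normexp (-0.325).

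Of the remaining lists, 1 to 5 genes passed the adjusted p in cholesterol and fatty acid metabolism (4 of 22 higher, MSMO1 at 0.41, and 1 lower, ABCA1 at -0.37), glycolysis and hypoxia (5 of 23 higher) and ribosome biogenesis and MYC (3 of 26 higher), and 0 was called. HBEGF, an EGF-family ligand, was at 0.36. No change was called in the receptor and adaptors of the pathway itself. IGF1R differed by -0.10, IRS2 by 0.00 and IRS1 by -0.03 on their brightest probe sets, and 0 of 24 IGF receptors, adaptors and binding proteins was called. At the adjusted p 1 of the 24 was higher, GAB1 at 0.25. A second IRS1 probe set went from 8.47, 8.32 and 8.39 to 8.78, 8.98 and 8.86, a difference of 0.48 (limma adjusted p = 0.0124) that stayed under 1.5-fold.

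In all, the groups did not overlap in any of the 59 called probe sets, and 16.6% of all probe sets had groups that did not overlap. The comparisons that follow share no arrays with the 4 h response of IRS-2 #1, so each clone's response is a separate measurement, and the difference in response was tested by limma in the same model.

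Most probe sets that rose in IRS-2 #1 also rose in the other IRS-2 clone, where more probe sets rose. Of the 48 probe sets that rose in IRS-2 #1, 43 were also called higher in IRS-2 #6 (89.6% of the 48 and 39.4% of the 109 that rose in IRS-2 #6, 0.2% of all), and all 48 passed the adjusted p there. The median of the 48 was 0.735 here and 0.863 there. Of the 11 that fell, 6 were called lower in IRS-2 #6 (54.5%, and 46.2% of its 13, 0.0238% of all). GBP1 rose from 7.87 ± 0.233 to 10.20 ± 0.081 in IRS-2 #6 (SD, n = 3), by 2.33, and TGFB2 by 1.84. The difference in response between the IRS-2 clones was called for 1 of 54613 probe sets (0.00183%), the MAFF probe set called in IRS-2 #1, which rose by 0.83 in IRS-2 #1 and by 1.85 in IRS-2 #6, a difference of -1.02 (SE 0.179, limma adjusted p = 0.0425). That call was lost without any one of the SFM arrays of IRS-2 #1, or IGF-I replicate A or C, under median centring, in a fit to the groups of the contrast alone and without the variance trend, and 2079 probe sets passed an unadjusted p of 0.05. On the brightest MAFF probe set the log2 fold changes were 0.27 and 0.30, neither of them called. With 3 arrays in each group, so few called differences do not show that the responses of the IRS-2 clones are the same.

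**Figure D4:**
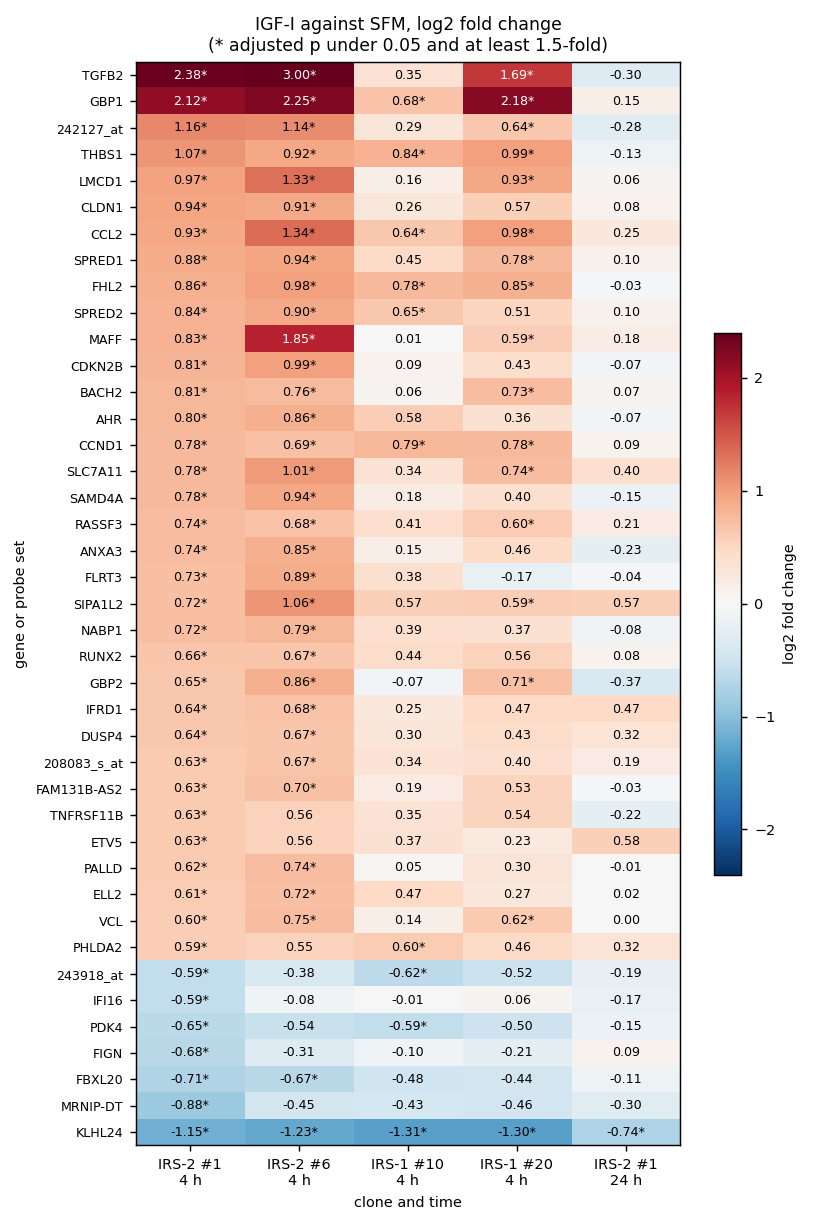
Log2 fold change of IGF-I over SFM for the 38 called genes and 3 probe sets without a single symbol (rows, each by its called probe set with the largest change) in IRS-2 #1, IRS-2 #6, IRS-1 #10 and IRS-1 #20 at 4 h and IRS-2 #1 at 24 h (columns), with asterisks at an adjusted p under 0.05 and 1.5-fold. The column of IRS-2 #6 resembles that of IRS-2 #1 for most genes, and IRS-1 #10 is paler for most genes that rose. Most of the 24 h column is closer to 0 than the 4 h column, with KLHL24 (-0.74), ETV5 (0.58) and SIPA1L2 (0.57) furthest from it.

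More of the probe sets that rose in IRS-2 #1 were called in IRS-1 #20 than in IRS-1 #10. The IRS-1 clones were not tested against each other. Of the 48 probe sets that rose in IRS-2 #1, 24 were called higher in IRS-1 #20 (50% of the 48 and 82.8% of its 29, 0.0531% of all) and 8 in IRS-1 #10 (16.7%, and 47.1% of its 17, 0.0311% of all), with medians of 0.579 and 0.341. At the adjusted p alone, 44 of the 48 were higher in IRS-1 #20 and 21 in IRS-1 #10. Of the 11 that fell, 4 were called lower in IRS-1 #20 (36.4%, and 12.9% of its 31, 0.0568% of all) and 6 in IRS-1 #10 (54.5%, and 35.3% of its 17, 0.0311% of all). In all 4 clones 10 probe sets were called, those of CCND1, CCL2, FHL2, THBS1 by its brightest probe set, 2 of GBP1 and 4 of KLHL24. The KLHL24 probe set that fell most in IRS-2 #1 changed by -1.23 in IRS-2 #6, -1.31 in IRS-1 #10 and -1.30 in IRS-1 #20. A further 18 were called in IRS-2 #6 and IRS-1 #20 but not in IRS-1 #10, the 4 of TGFB2 among them, and 20 were called in IRS-2 #6 and in neither IRS-1 clone, among them those of CDKN2B, AHR, CLDN1, SAMD4A, ANXA3, PALLD and DUSP4. AHR, at 0.584 in IRS-1 #10, and a CLDN1 probe set, at 0.566 in IRS-1 #20, passed the adjusted p there just under 1.5-fold. Calls in 1 clone and not in another do not show a difference. Differences of IRS-2 #1 from the other clones were tested separately.

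Against the mean response of both IRS-1 clones, the response of IRS-2 #1 differed in 8 probe sets (0.0146%), 7 with a larger value in IRS-2 #1 and 1 with a smaller one. They were 2 of TGFB2 (differences of 1.36 and 0.84), 3 of GBP1 (0.69, 0.65 and 0.60), 2 without a single symbol (0.69 and 0.65) and IFI16 (-0.62, SE 0.119, limma adjusted p = 0.0115). The count was 13 without SFM replicate C of IRS-2 #1, 5 without SFM replicate A, and 3 and 1 without the arrays lettered A and C in all groups. The IFI16 call was lost without the arrays lettered A or C in all groups, and without SFM replicate A or IGF-I replicate C of IRS-2 #1 alone. It was also lost under median centring, normexp, a fit to the groups of the contrast, the replicate letter as a block and Bonferroni adjustment. Compared with each IRS-1 clone alone, a choice made after seeing the data, 13 probe sets differed from IRS-1 #10 (0.0238%), all larger in IRS-2 #1 and 12 of them among the 59, and 4 differed from IRS-1 #20 (0.00732%), 0 of them among the 59. TGFB2 rose by 1.63 in IRS-2 #1, against 0.28 in IRS-1 #10, which was not called, and 1.31 in IRS-1 #20. The difference was 1.35 from IRS-1 #10 (SE 0.136, limma adjusted p = 4.38e-09) and 0.33 from IRS-1 #20 (SE 0.136, limma adjusted p = 0.603). GBP1 likewise differed by 1.41 from IRS-1 #10 and by -0.11 from IRS-1 #20 (limma adjusted p = 0.9). IFI16 was called against neither clone alone, differing by -0.58 from IRS-1 #10 (limma adjusted p = 0.133) and by -0.65 from IRS-1 #20 (limma adjusted p = 0.0506). CDKN2B and SAMD4A also rose more than in IRS-1 #10, by 0.72 and 0.60. A dimmer probe set did so for LMCD1 (0.80), BACH2 (0.75) and CLDN1 (0.67), while on their brightest ones the differences were 0.08, 0.31 and 0.51 and were not called.

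The 4 that differed from IRS-1 #20 were SPTBN1 (-0.62), LINC00324 (-0.61), ADM (0.60) and ZBED5 (0.59). Starting levels also differed between clones. GBP1 was at 8.86 ± 0.0866 in SFM arrays of IRS-1 #10 and at 7.82 ± 0.0689 in those of IRS-2 #1 (SD, n = 3), and the IGF-I level of IRS-2 #1 was 9.87. The IFI16 level of SFM arrays was 9.67 for IRS-1 #10 and 7.45 for IRS-1 #20, while the IRS-2 clones were at 6.33 (#6) and 6.70 (#1), and its 4 h response in the other clones lay between -0.08 and 0.06. CDKN2B was at 6.95 in SFM arrays of IRS-1 #10 and 7.04 after IGF-I there, against 6.68 and 7.49 in IRS-2 #1.

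**Figure D5:**
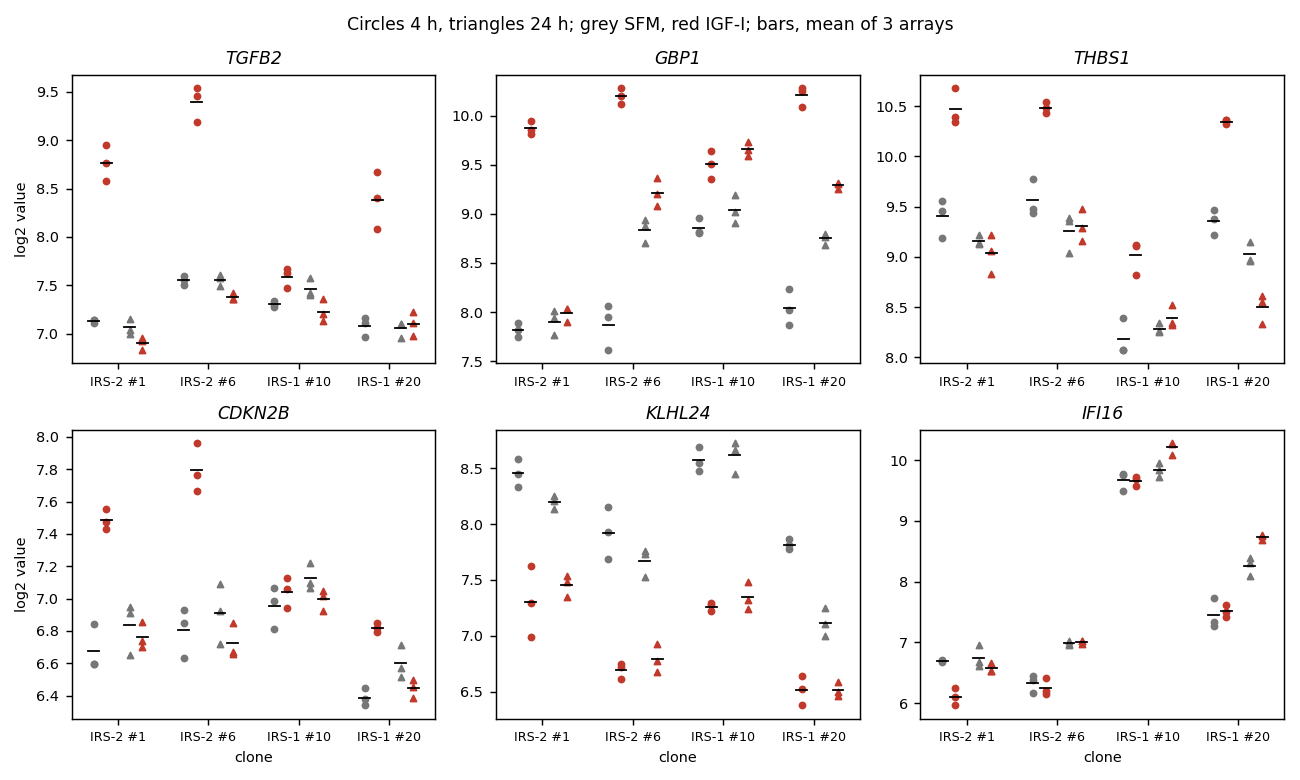
Log2 level of TGFB2, GBP1, THBS1, CDKN2B, KLHL24 (the probe set that fell most) and IFI16 on every array, by clone, with circles for 4 h, triangles for 24 h, grey for SFM, red for IGF-I and bars for the mean of 3 arrays. In IRS-2 #1 the 4 h IGF-I arrays stand apart from the SFM arrays, while at 24 h the groups lie closer together in each gene, KLHL24 keeping the widest gap.

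At 24 h few of these probe sets were called in IRS-2 #1. Of the 48 probe sets that rose at 4 h, 1 was called higher at 24 h (2.08%, and 7.14% of the 14 that rose then, 0.0256% of all), a DUSP4 probe set at 0.65, and of the 11 that fell, 1 was called lower (9.09%, and 8.33% of 12, 0.022% of all), a KLHL24 probe set at -0.74. The median of the 48 was 0.04 at 24 h, and 7 of them were higher at the adjusted p. For the 11 that fell the median was -0.299 at 24 h, and 5 of them were lower at the adjusted p. The response at 4 h differed from that at 24 h in 86 probe sets (0.157%), 58 with a larger value at 4 h (0.106%) and 28 with a smaller one (0.0513%), and these held 34 of the 48 that rose and 1 of the 11 that fell, that of FIGN. TGFB2 differed by 1.79 (1.795, SE 0.136, limma adjusted p = 3.8e-13) and GBP1 by 1.97 (SE 0.129, limma adjusted p = 1.99e-15). GBP1 was at 7.90 ± 0.126 in SFM arrays and 7.99 ± 0.0754 in IGF-I arrays at 24 h (SD, n = 3). THBS1, SAMD4A, ANXA3, FHL2, CDKN2B and AHR differed by 0.87 to 1.19, and SRF and KLF4, under 1.5-fold at 4 h, by 0.60 and 0.66.

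CCND1 differed by 0.69, and its SFM level was 8.70 at 4 h and 9.35 at 24 h, so that the 24 h SFM arrays were near the 9.48 of the 4 h IGF-I arrays. Genes whose response did not differ between the times at the adjusted p included ETV5 (0.63 and 0.58), SIPA1L2 (0.72 and 0.57), IFRD1 (0.64 and 0.47) and DUSP4 (0.64 and 0.32). Leaving out IGF-I replicate B of the 4 h arrays gave 123 differing probe sets, 51 larger and 72 smaller at 4 h, and leaving out IGF-I replicate A gave 77, 64 larger and 13 smaller. A fit to the groups of this contrast alone gave 122, 63 larger and 59 smaller.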

How the data were processed

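Expression values were the series matrix that the authors deposited, on a log2 scale after GC-RMA, which the methods place in GeneData Refiner and the processing notes name without a version. The further normalization to the untreated state that the methods describe is not in these values, so IGF-I arrays were set against SFM arrays. Scanner files were not used here, and signal over background is therefore not known. The table holds 54675 probe sets, 62 of them Affymetrix controls that were not tested. The 6 arrays were grouped by source name, and precision is limited by having 3 arrays in each.

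A mean for each of 16 groups was fitted to 48 arrays in limma 3.58.1 (R 4.3.3), with an intensity trend, 32 residual degrees of freedom and no filter on dim probe sets. GC-RMA draws information across arrays and compresses low values, which can affect fold changes of dim probe sets. Symbols came from the platform annotation, where 41091 tested probe sets have 1 symbol, 1801 several and 11721 none. Each gene was represented by the single-symbol probe set of highest mean across the 48 arrays.

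The genes named were every called gene, called list members, the genes of the study's PCR with TGFB1, IRS1, IRS2 and IGF1R, the 5 largest called differences of each response contrast and up to 4 members past the adjusted p per list without a called member. The comparison, the genes and 24 gene lists with 5 marker lists were chosen with earlier results of these data known. The lists come from general knowledge and were described by counts and medians, without a set test. The fit was tested on simulated data. Alternatives were a filter that kept probe sets reaching log2 5 on 3 or more arrays, quantile normalization, median centring, normexp, a fit to the groups of each contrast, no trend, the replicate letter as a block, each letter and each of the 6 arrays left out, other fold thresholds, Bonferroni adjustment, the methods' t-test and averaging every probe set of a gene. Single IRS-1 clones and an ACTB covariate were added after seeing the data. Promoters came from RefSeq GRCh38.p14. Figures and searches used Python 3.11.15 with matplotlib 3.10.9, pandas 2.3.3 and numpy 2.4.6.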

Additional observations from a re-analysis of the deposited data

Results flagged for a closer look

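The response of IRS-2 #1 at 4 h differed from its response at 24 h, by limma's test of the difference, in 21 of the genes named. The log2 differences, 4 h minus 24 h, were 1.97 for GBP1, 1.795 for TGFB2, 1.19 for THBS1, 0.97 for ANXA3, 0.93 for SAMD4A, 0.89 for FHL2, 0.88 for CDKN2B, 0.87 for AHR, 0.80 for NABP1, 0.78 for SPRED1, 0.74 for SPRED2, 0.69 for CCND1 and 0.68 for CCL2. They were 0.66 for CLDN1, FAM131B-AS2 and KLF4 (0.661, 0.658 and 0.655), 0.64 for PALLD, 0.60 for VCL, SRF and ELL2 (0.602, 0.603 and 0.596) and 0.59 for RUNX2. The response differed between the clones in 9 further values. Against the mean of the IRS-1 clones, the difference was 0.84 for the brightest TGFB2 probe set and 1.36 for the one dimmest in SFM, 0.65 for the brightest GBP1 probe set and 0.69 and 0.60 for the next 2, 0.69 and 0.65 (0.646) for 2 probe sets without a single symbol, and -0.62 for IFI16, which was called against neither IRS-1 clone alone. Against IRS-2 #6 it was -1.02 for the MAFF probe set called in IRS-2 #1.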

How the results depend on the processing

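The 59 called probe sets ranged from 41 to 61 over the dim filter, both normalizations between arrays, normexp, the fit to the groups of the contrast, no trend, the ACTB covariate and Bonferroni adjustment, and from 58 to 96 over the letters and arrays left out. Without a fold threshold they were 887, at 2-fold 10, and by the methods' t-test 59 at its unadjusted threshold and 3 after Benjamini-Hochberg. Of the 59, 25 were called under every setting tried and 34 were lost under at least 1, none in the opposite direction, normexp losing 18 and the mean of all probe sets of a gene 17, and 4 of 43 uncalled named genes were called under at least 1. Counts of called list members moved by over 1.5 times in 13 cases and not in 419. The 1 difference from IRS-2 #6 was 2 under quantile normalization, 3 under normexp, and 0 under median centring, the fit to the groups of the contrast and no trend (limma, with 2037, 1760 and 2152 probe sets past an unadjusted p of 0.05 and 2079 in the limma fit as reported), and 0 to 12 with letters or arrays left out. The 8 differences from the IRS-1 clones were 5 under quantile normalization, 4 under normexp, 32 without a fold threshold, 1 at 2-fold, 4 by Bonferroni, 13 against IRS-1 #10 alone and 4 against IRS-1 #20 alone, and 1 to 13 with letters or arrays left out. The 86 differences from 24 h were 53 under normexp, 122 in the fit to the groups of the contrast, 523 without a fold threshold, 10 at 2-fold and 47 by Bonferroni, and 65 to 123 with letters or arrays left out. Deviations of same-lettered SFM and IGF-I arrays correlated at 0.093 for A, -0.053 for B and -0.047 for C. Those of different-lettered arrays correlated at -0.08 to 0.104. No shared deviation by letter was thus seen, which does not show that the samples were unpaired. With the replicate block, the 59 stayed at 59, the 1 became 2, neither of them the MAFF probe set, the 8 became 4 and the 86 became 82. The cause of these changes was not tested. A single clone and 3 arrays per group limit every value here.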
